A study of Mus musculus with 9 samples.

Results

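Dentate granule cell markers are genes transcribed mainly, within the hippocampus, by the granule neurons of the dentate gyrus. Here 10 of them, listed by symbol, were followed among the 24394 genes of the count table. All 10 were found in the table and all 10 passed the filter on low counts, which kept 15296 genes. The libraries hold polyadenylated RNA from postmortem hippocampus of young C57BL6/J mice, an inbred strain, in 3 groups of 3. Controls were sham mice treated with saline. A second set of mice had an injection of doxorubicin, an anthracycline used in chemotherapy that poisons topoisomerase II. The last group had the same drug and a supplement of MitoQ, an antioxidant that gathers in mitochondria. The sources used here give neither dose, time after injection, sex nor exact age, and do not state that each library came from its own animal, so the p-values measure the spread between libraries, which may be technical.

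Granule neurons are the first relay of the hippocampal circuit. They receive input from the entorhinal cortex, and their axons, the mossy fibres, excite CA3 pyramidal neurons and hilar mossy cells. The dentate gyrus is also a site where neurons are born in the adult rodent, and a newborn granule cell turns on Calb1 only once it matures, whereas Prox1 is already made by progenitors and immature granule cells. In bulk RNA, fewer granule cells and less of a transcript per cell cannot be told apart.

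Library totals were 24672520 to 41214335 counts, and levels are CPM, the counts scaled to a common TMM-adjusted library size. Single libraries within the groups stood apart in dentate genes. Of the 10 markers, 5 had their highest value in MitoQ replicate 2, the deepest library, and 9 were among their top 3 values there. Of 20 other dentate genes described further on, 11 were highest in doxorubicin replicate 3. Sham replicate 2 had the lowest value for 4 of 10 markers and 8 of 20 other dentate genes, and without it 8 markers and 15 other dentate genes lay above sham after doxorubicin. The choroid plexus list, a sign of tissue carried along in dissection, summed to 269 to 7030 CPM in sham, 283 to 5700 CPM after doxorubicin and 2080 to 7180 CPM with MitoQ. The highest sums were in sham replicate 2, doxorubicin replicate 1 and MitoQ replicate 3. These libraries held the lowest value of 4, 1 and 2 of the 10 markers, while sham replicate 3 and doxorubicin replicate 3 held that of 2 and 1.

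No marker passed the test for a difference between the groups. EdgeR's quasi-likelihood test with Benjamini-Hochberg adjustment called 0 of 10 markers in doxorubicin against sham, in MitoQ against doxorubicin and in MitoQ against sham, and also in the test for any difference among the 3 groups. The share of all tested genes called was 0% in each of these tests. At an unadjusted p under 0.05 the markers also numbered 0 in every comparison, where the share of all genes was 8.83%, 3.3% and 2.95% in that order and 5.11% for any difference. The lowest edgeR adjusted p of a marker was 0.6 (C1ql2, doxorubicin against sham). DESeq2 called 44, 5 and 2 genes in these comparisons, none of them a marker, and limma-voom called 0.

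The estimates were narrow enough to bound the size of a difference between these groups of libraries. The intervals rest on the spread between libraries. They bound a difference between mice only if each library came from its own animal, which is not stated. The standard error (SE) of a log2 fold change lay between 0.07 and 0.22 in doxorubicin against sham, with a median of 0.11. The 95% interval stayed inside a 1.5-fold change in either direction for 9 of 10 markers in doxorubicin against sham, for 9 in MitoQ against doxorubicin and for 10 in MitoQ against sham. The exception in the first 2 comparisons was Tdo2, the marker with the lowest level. After doxorubicin 7 of 10 markers lay above sham and 3 below, with a median log2 fold change of 0.09, where 51.1% of all genes lay above and their median was 0.004. In MitoQ against doxorubicin 7 lay above, with a median of 0.02, against 49.9% of all genes. In MitoQ against sham 7 lay above, with a median of 0.08, against 52.2% of all genes. These counts rested partly on single libraries. Without MitoQ replicate 2 the markers above doxorubicin numbered 2 and those above sham numbered 4, and without doxorubicin replicate 1 the markers above doxorubicin numbered 4.

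**Figure D1:**
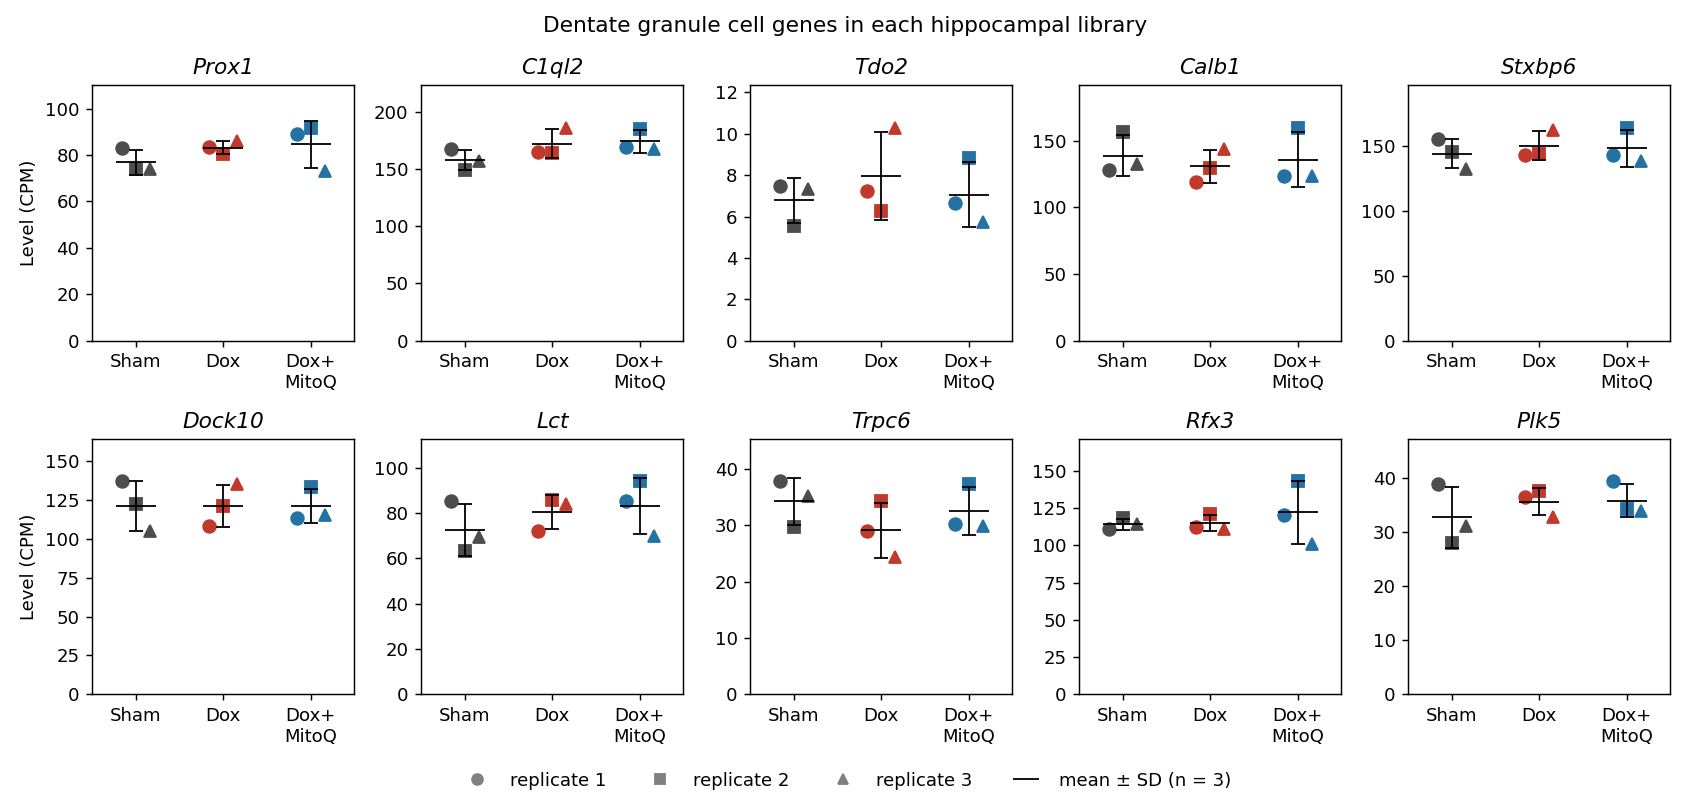
Level in CPM (vertical axis, from 0) of each of the 10 dentate granule cell markers in every library. Symbols give the replicate, colours the group, and bars the mean ± SD of 3 libraries; only for C1ql2 do the MitoQ libraries lie just above every sham library, and the other groups overlap for every marker.

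**Figure D2:**
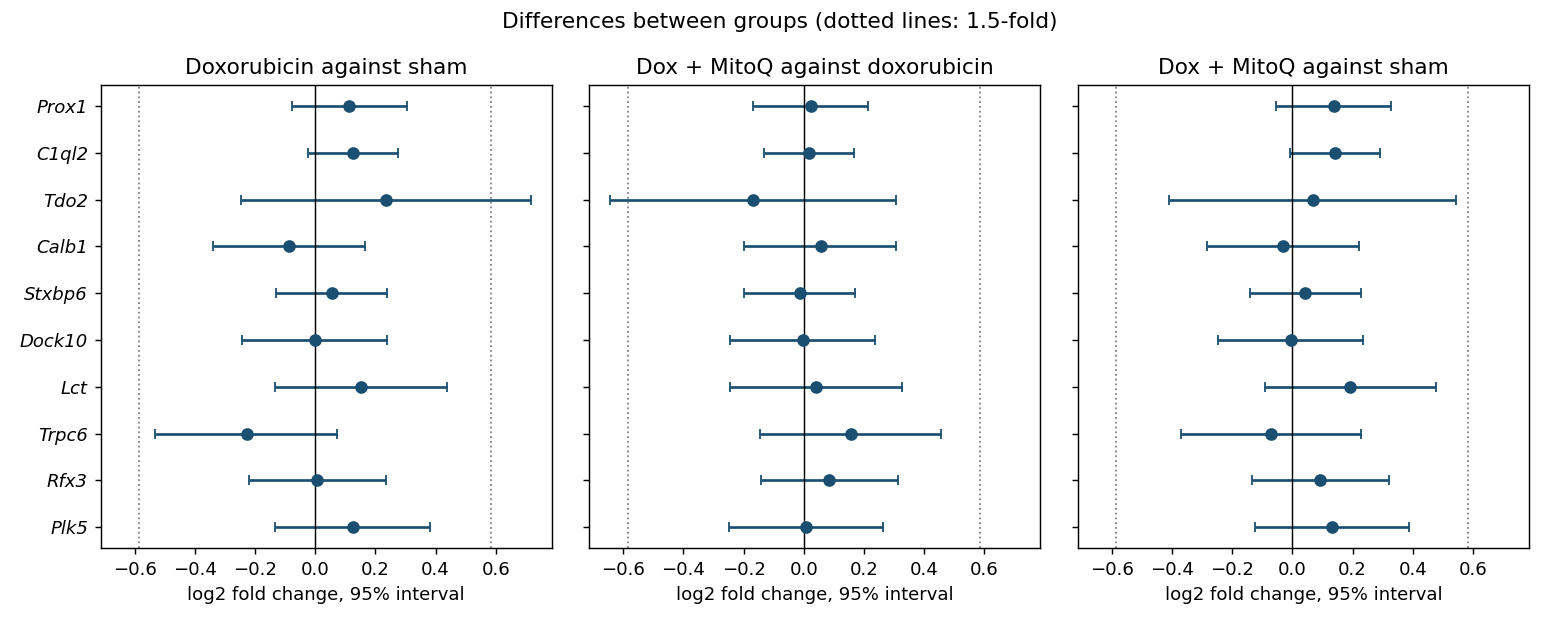
Log2 fold change (horizontal axis) of each marker in the 3 comparisons, with the 95% interval of the edgeR fit and dotted lines at 1.5-fold. Every interval includes 0, and only those of Tdo2 cross a dotted line.

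Levels were compared between genes per kilobase of exon (RPKM, CPM divided by the exon length of GENCODE M21, since the annotation used for counting is not given). C1ql2 led at 83.8 ± 5.92 RPKM (SD over 9 libraries) and lay apart from all others. Calb1 (27.9 ± 3.06 RPKM) and Stxbp6 (27.8 ± 2.03 RPKM) followed with overlapping ranges. A lower tier held Plk5 at 13 ± 1.41, Lct at 12.3 ± 1.61, Rfx3 at 10.6 ± 1.04 and Prox1 at 9.72 ± 0.826 RPKM, each overlapping its neighbour. Below these came Dock10 at 6.62 ± 0.648 and Trpc6 at 6.3 ± 0.875 RPKM, which also overlapped. Tdo2 was lowest at 1.87 ± 0.391 RPKM, with no overlap with Trpc6.

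Among the transcription factors, Prox1 encodes the homeodomain protein that specifies and maintains granule cell identity. The gene lies on chromosome 1 (190118035 to 190170714, minus strand; GRCm38), and 1.59% of its exon bases overlap the antisense gene Prox1os, whose reads cannot be separated without strand. Prox1 was at 83.2, 73.8 and 73.8 CPM in sham, 83.6, 80.2 and 85.8 CPM after doxorubicin and 89.1, 91.8 and 72.9 CPM with MitoQ. Sham replicate 1 reached the doxorubicin range, and MitoQ replicate 3 lay below every other library, so the groups overlapped. The log2 fold change of doxorubicin against sham was 0.11 (95% interval -0.08 to 0.30; edgeR adjusted p = 0.71), and that of MitoQ against doxorubicin was 0.02 (-0.17 to 0.21).

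Rfx3 encodes a regulatory factor X protein that drives genes of cilia and is also used by ependymal cells (chromosome 19, 27761721 to 28011166, minus strand). It was at 111, 118 and 114 CPM in sham, 112, 121 and 111 CPM after doxorubicin and 120, 143 and 101 CPM with MitoQ. The MitoQ libraries thus held both the highest and the lowest value of the 9, and the sham and doxorubicin libraries lay within that span. Its difference between doxorubicin and sham was 0.01 on the log2 scale (95% interval -0.22 to 0.24; edgeR adjusted p = 0.99). The ependymal and cilia list summed to 42.8 to 84.6 CPM in sham, 44.1 to 67.4 CPM after doxorubicin and 65.5 to 79.4 CPM with MitoQ, with 10 of 10 genes detected, and its part in the Rfx3 values was not tested.

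At the mossy fibre synapse, C1ql2 encodes a secreted protein of the C1q family that granule cells release onto CA3 neurons, where it helps recruit kainate receptors (chromosome 1, 120340582 to 120343174, plus strand). It was the marker with the smallest spread, with a biological coefficient of variation of 6.65%. A lower one was found for 19.8% of all genes tested, and the common value of the fit was 11.4%. C1ql2 was at 166.5, 148.9 and 157.2 CPM in sham, 165.2, 164.0 and 186.1 CPM after doxorubicin, and 168.7, 185.2 and 167.3 CPM with MitoQ. All 3 MitoQ libraries lay above all 3 sham libraries, by a margin of under 1 CPM, and doxorubicin overlapped sham. It was the only one of 10 markers whose groups did not overlap in any comparison, where 4.11% of all genes were separated in this direction in MitoQ against sham (6.2% in doxorubicin against sham and 4.73% in MitoQ against doxorubicin). In either direction the groups did not overlap for 13% of all genes in doxorubicin against sham, 9.71% in MitoQ against doxorubicin and 9.11% in MitoQ against sham, and for 0, 0 and 1 of the markers. The log2 fold changes against sham were 0.13 for doxorubicin (95% interval -0.02 to 0.28; edgeR adjusted p = 0.6) and 0.14 for MitoQ (-0.01 to 0.29; edgeR adjusted p = 1). These comparisons share the sham libraries.

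Stxbp6 encodes amisyn, which binds SNARE proteins and restrains vesicle fusion (chromosome 12, 44852484 to 45074709, minus strand). It was at 155, 145 and 132 CPM in sham, 143, 144 and 162 CPM after doxorubicin and 143, 164 and 138 CPM with MitoQ. Each group spanned most of the range of the others, and the log2 fold change of doxorubicin against sham was 0.06 (95% interval -0.13 to 0.24; edgeR adjusted p = 0.87). Without doxorubicin replicate 3 it was -0.0069, and without sham replicate 3 it was -0.007.

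Of the genes for calcium handling, Calb1 encodes calbindin, the calcium buffer of mature granule cells, which CA1 neurons and some interneurons also make (chromosome 4, 15881264 to 15908064, plus strand). It was at 128, 157 and 133 CPM in sham, 119, 130 and 144 CPM after doxorubicin and 124, 160 and 124 CPM with MitoQ. Sham replicate 2 and MitoQ replicate 2 were high, and the lowest value came from doxorubicin replicate 1. The log2 fold change of doxorubicin against sham was -0.09 (95% interval -0.34 to 0.17; edgeR adjusted p = 0.85), and without sham replicate 2 it was 0.0027. Relative to Prox1 in the same library, the log2 ratio of Calb1 was 0.85 ± 0.23 in sham, 0.65 ± 0.13 after doxorubicin and 0.68 ± 0.18 with MitoQ (SD, n = 3), and the groups overlapped.

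Trpc6 encodes a diacylglycerol-gated cation channel (chromosome 9, 8544142 to 8680741, plus strand). It was at 37.8, 29.6 and 35.1 CPM in sham, 28.9, 34.2 and 24.4 CPM after doxorubicin and 30.2, 37.3 and 29.8 CPM with MitoQ. Doxorubicin replicate 3 was the lowest of the 9, while doxorubicin replicate 2 lay inside the sham range. Its log2 fold change after doxorubicin, -0.23 (95% interval -0.53 to 0.07; edgeR adjusted p = 0.64), was the most negative among the markers. Without doxorubicin replicate 3 it was -0.11, and without doxorubicin replicate 2 it was -0.37. The library with the least Trpc6 was that with the most C1ql2, and the log2 ratio of Trpc6 to C1ql2 was -2.93 there. It was -2.52 and -2.26 in the other doxorubicin libraries, -2.14 to -2.33 in sham and -2.48, -2.31 and -2.49 with MitoQ. The pair is shown because both extremes fell in that library.

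The remaining markers are enzymes and a signalling protein. Tdo2 encodes tryptophan dioxygenase, which opens the kynurenine pathway and is best known from liver (chromosome 3, 81957090 to 81976202, minus strand). It was at 7.47, 5.53 and 7.32 CPM in sham, 7.22, 6.26 and 10.3 CPM after doxorubicin and 6.66, 8.81 and 5.72 CPM with MitoQ, a spread of 1.87-fold from the lowest to the highest library. Doxorubicin replicate 3 and MitoQ replicate 2 lay above sham, and the other doxorubicin and MitoQ libraries lay within its range. The log2 fold change of doxorubicin against sham was 0.24 (95% interval -0.24 to 0.72; edgeR adjusted p = 0.77), the largest among the markers, and it was -0.0011 without doxorubicin replicate 3. Its interval allows a change of up to 1.64-fold.

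Lct encodes lactase, the milk sugar hydrolase of the intestinal brush border, whose transcript is also a marker of granule cells (chromosome 1, 128284756 to 128328318, minus strand). It was at 85.3, 63.1 and 69.4 CPM in sham, 72.1, 85.9 and 83.9 CPM after doxorubicin and 85.1, 94 and 69.6 CPM with MitoQ. The high sham replicate 1 made the groups overlap. The log2 fold changes against sham were 0.15 for doxorubicin (95% interval -0.13 to 0.44; edgeR adjusted p = 0.74) and 0.19 for MitoQ (-0.09 to 0.48; edgeR adjusted p = 1).

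Plk5 encodes a brain-expressed member of the polo-like kinase family (chromosome 10, 80356459 to 80365489, plus strand). It was at 38.9, 28 and 31.1 CPM in sham, 36.5, 37.5 and 32.8 CPM after doxorubicin and 39.4, 34.2 and 33.8 CPM with MitoQ. Apart from sham replicate 1, the sham libraries lay below all others. The log2 fold change of doxorubicin against sham was 0.13 (95% interval -0.13 to 0.38; edgeR adjusted p = 0.77), 0.27 without sham replicate 1 and 0.02 without sham replicate 2. Dock10, an exchange factor of the DOCK family that shapes dendritic spines (chromosome 1, 80501073 to 80758527, minus strand), had means that were equal after rounding, at 121 ± 16.3 CPM in sham, 121 ± 13.4 CPM after doxorubicin and 121 ± 11 CPM with MitoQ (SD, n = 3). Its values were 137, 122 and 105 CPM in sham, 108, 121 and 135 CPM after doxorubicin and 113, 133 and 115 CPM with MitoQ, and the interval of doxorubicin against sham was -0.24 to 0.24 on the log2 scale (edgeR adjusted p = 1).

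Promoter sequences were looked at for the markers that peaked in the same library. Of the 5 that were highest in MitoQ replicate 2, the RefSeq table (GRCm38.p6) gave a single window for Stxbp6, Lct and Rfx3, and these are shown from 250 bases before to 50 bases after the start that RefSeq gives, 5′ to 3′ on the gene's strand. For Lct and Rfx3 that start is the end of the GENCODE gene printed above, while for Stxbp6 it lies downstream of it, and the GENCODE start falls inside the window near its 5′ end. Capitals mark matches, on either strand, to the E-box CAGATG, which NeuroD factors bind, to the RFX half-site GTTGCC and to the TATA box TATAAA. The windows are chr12:45074434-45074733 for Stxbp6, chr1:128328269-128328568 for Lct and chr19:28011117-28011416 for Rfx3, all on the minus strand.
Stxbp6: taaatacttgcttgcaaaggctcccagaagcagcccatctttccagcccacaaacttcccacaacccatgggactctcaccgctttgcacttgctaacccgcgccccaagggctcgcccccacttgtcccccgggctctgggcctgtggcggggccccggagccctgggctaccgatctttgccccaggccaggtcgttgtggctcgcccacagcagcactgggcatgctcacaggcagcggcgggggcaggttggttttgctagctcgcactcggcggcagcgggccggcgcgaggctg
Lct: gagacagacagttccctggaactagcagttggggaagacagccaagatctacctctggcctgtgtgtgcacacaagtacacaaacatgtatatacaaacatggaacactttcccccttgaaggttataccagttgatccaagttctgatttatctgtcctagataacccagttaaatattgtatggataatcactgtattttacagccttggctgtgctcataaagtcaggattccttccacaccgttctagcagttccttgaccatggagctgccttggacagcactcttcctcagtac
Rfx3: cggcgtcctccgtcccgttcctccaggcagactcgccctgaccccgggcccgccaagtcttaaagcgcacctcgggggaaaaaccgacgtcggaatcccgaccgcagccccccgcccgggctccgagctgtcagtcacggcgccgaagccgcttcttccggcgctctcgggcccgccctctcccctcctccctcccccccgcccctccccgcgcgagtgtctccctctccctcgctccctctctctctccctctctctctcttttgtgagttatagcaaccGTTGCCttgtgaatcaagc
The Rfx3 window held 1 RFX half-site, close to its 3′ end, and the Stxbp6 and Lct windows held 0 matches to any of these letters. Over 32851 promoter windows the RFX half-site was present in 12.5%, the E-box in 17.2% and the TATA box in 13.6%. The windows also differed in base composition, with 68% G and C in Rfx3, 66.3% in Stxbp6 and 44.7% in Lct. Windows were given for 9 of the 10 markers, with none for Calb1. Prox1, also highest in MitoQ replicate 2, had more than 1 window and is not shown. Its window at chr1:190170778-190171077 held 1 E-box and 1 TATA box, and its other window held 0 matches. Among markers highest in other libraries, both Dock10 windows held 1 E-box and the Tdo2 window held 1 TATA box. Those of C1ql2, Trpc6 and Plk5 held 0 matches.

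The other dentate genes, 20 in number and named for expression in granule cells or at mossy fibre terminals, were described to set the markers in their pathway. This list was chosen with earlier results of these data known, so its counts are descriptions. All 20 were tested, and 0 were called in any comparison by edgeR. At an unadjusted p under 0.05 there were 3 of 20 in doxorubicin against sham (Glis3, Fam163b and Sema5a, all higher), 0 in MitoQ against doxorubicin and 1 in MitoQ against sham (Bcl11b, higher), where the shares of all genes were 8.83%, 3.3% and 2.95%. After doxorubicin 17 of 20 lay above sham with a median log2 fold change of 0.11, and in MitoQ against sham 15 of 20 did with a median of 0.06. In MitoQ against doxorubicin 4 of 20 lay above, with a median of -0.04. Without doxorubicin replicate 3 these counts were 12, 15 and 14 of 20, and the last was 11 without MitoQ replicate 3 and 8 with a choroid plexus covariate.

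Doxorubicin replicate 3 carried the largest departures among these genes. Dsp, which encodes the desmosomal linker desmoplakin, reached 140 CPM in doxorubicin replicate 3, compared with 82 and 83.2 CPM in replicates 1 and 2 and 71.2 to 86.4 CPM in sham. Dgat2, an enzyme of triglyceride synthesis, stood there at 115 CPM, compared with 77.7 and 76 CPM in replicates 1 and 2 and 73.9 to 77.9 CPM in sham. Maml2, a coactivator of Notch signalling, was at 44 CPM there, against 29.9 and 27 CPM in replicates 1 and 2. These 3 genes were chosen after their values were seen. The mean of the 20 genes relative to sham was 0.26 on the log2 scale in doxorubicin replicate 3, and 0.03 and 0.07 in the other doxorubicin libraries, while the mean of the 10 markers was 0.11, -0.02 and 0.05.

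Of the genes named by rule, Glis3, a Krüppel-like zinc finger factor, was at 20.8, 19 and 19.8 CPM in sham, 22.4, 21.3 and 29.9 CPM after doxorubicin and 24.4, 21.7 and 20.8 CPM with MitoQ. The doxorubicin libraries all lay above sham, as did the MitoQ libraries by a narrow margin, where 6.2% and 4.11% of all genes did (log2 fold change 0.31, SE 0.12, edgeR adjusted p = 0.52 after doxorubicin). Bcl11b, which encodes the transcription factor CTIP2, was at 234 ± 15.4 CPM in sham, 252 ± 11 CPM after doxorubicin and 265 ± 23.8 CPM with MitoQ (edgeR adjusted p = 1 for MitoQ against sham). Fam163b was at 265, 221 and 234 CPM in sham, 272, 257 and 368 CPM after doxorubicin and 311, 263 and 243 CPM with MitoQ, with doxorubicin replicate 3 again highest (edgeR adjusted p = 0.53 for doxorubicin against sham). On the other side, Grm2, the presynaptic metabotropic glutamate receptor of mossy fibres, was at 88.7, 83.8 and 84.7 CPM in sham and 82.5, 81.3 and 66.7 CPM after doxorubicin, with no overlap (log2 fold change -0.16, SE 0.09, edgeR adjusted p = 0.62). In this direction 1038 of all 15296 genes were separated from sham after doxorubicin. With MitoQ Grm2 was at 80.2, 90.9 and 74.9 CPM, a range that spans sham. Sema5a, a semaphorin that limits synapse number on granule cells, was at 206 ± 11.1 CPM after doxorubicin and 187 ± 7.74 CPM with MitoQ (edgeR adjusted p = 0.97).

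**Figure D3:**
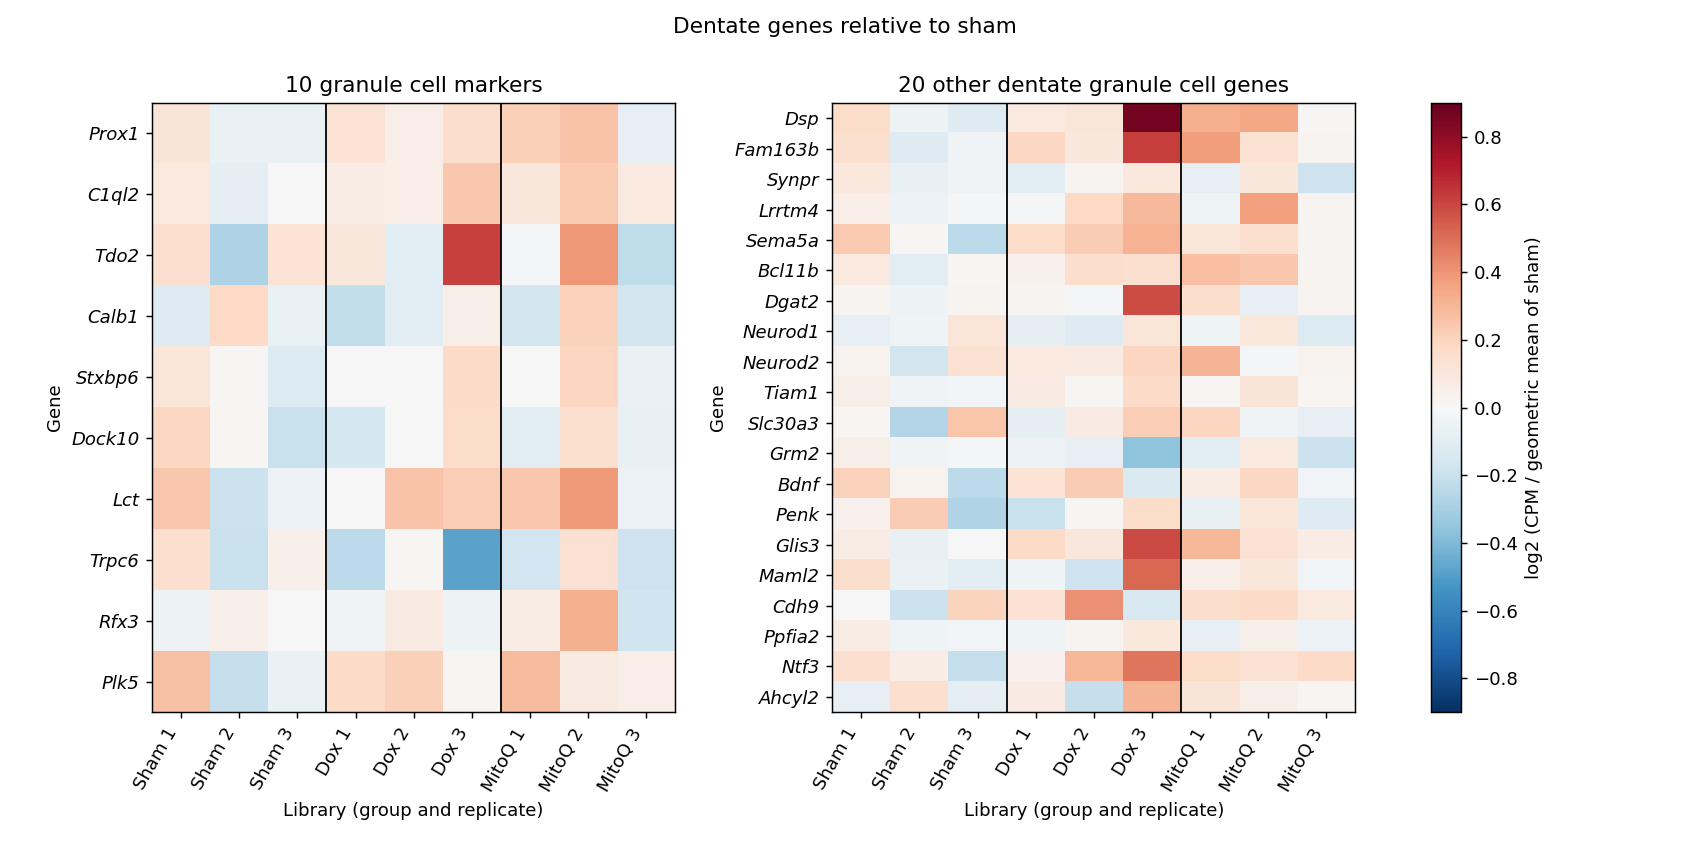
Log2 of each library's CPM over the geometric mean of sham (colour) for the 10 markers (left) and 20 other dentate genes (right); columns are libraries and black lines separate the groups. The strongest colours fall in doxorubicin replicate 3, where Dsp reached 140 CPM and Tdo2 10.3 CPM, and not in the other doxorubicin libraries.

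Markers of neighbouring cells varied beside the granule cell markers. These lists and those of the next paragraph were chosen with earlier results of these data known. Their counts are therefore descriptions and no independent support. Progenitor and immature granule genes summed to 106 to 111 CPM in sham, 71 to 107 CPM after doxorubicin and 92.1 to 96.6 CPM with MitoQ, the lowest being doxorubicin replicate 3. Of these 12 genes 4 lay above sham and 8 below after doxorubicin, with a median log2 fold change of -0.15 and 0 called. The CA3 and CA2 list, whose neurons are the targets of mossy fibres, summed to 492 to 585 CPM in sham, 617 to 734 CPM after doxorubicin and 521 to 643 CPM with MitoQ. Its highest value was also in doxorubicin replicate 3. After doxorubicin 11 of 11 genes lay above sham, where 7816 of all 15296 genes did, with a median log2 fold change of 0.35. Of the 11 genes 5 did not overlap sham and 6 had an unadjusted p under 0.05 in edgeR, but 0 were called. Of all genes 948 lay above sham without overlap, and 663 did so at an unadjusted p under 0.05. Mossy cell genes summed to 48.4 to 67.4, 38.2 to 57.8 and 43.2 to 51.3 CPM in the order sham, doxorubicin and MitoQ. Calb2 had the most counts of the 5 genes, 9554 over the 9 libraries, and so weighs most in this sum. After doxorubicin 3 of 5 lay above sham and 2 below, with a median log2 fold change of 0.26 and 0 called. The mean of the 5 relative to sham was 0.3, 0.11 and 0.04 on the log2 scale in the doxorubicin libraries.

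Classes that express some of the markers themselves were summed as well. The CA1 list, part of whose neurons make Calb1, summed to 837 to 857 CPM in sham, 766 to 802 CPM after doxorubicin and 820 to 837 CPM with MitoQ, so that the doxorubicin libraries lay below sham. Of its 7 genes 3 lay above sham after doxorubicin, 4 below and 0 were called. Without overlap 3 of 7 lay below sham, and 3 did so at an unadjusted edgeR p under 0.05. Of all 15296 genes 1038 and 687 did. Interneurons of the caudal ganglionic eminence, which also express Prox1, summed to 539 to 570, 505 to 549 and 524 to 533 CPM in the order sham, doxorubicin and MitoQ. Cck had the most counts of these genes, 85897 over the 9 libraries, and so weighs most in this sum. Genes of neurons in general summed to 6950 to 7500, 7390 to 7780 and 7040 to 7400 CPM. Genes of fibroblasts and meninges, which also follow dissection, summed to 155 to 353 CPM in sham, 92.9 to 263 CPM after doxorubicin and 197 to 283 CPM with MitoQ. Igf2 had the most counts of these genes, 37888 over the 9 libraries, and so weighs most in this sum. In each group the sum was highest in the library with the highest choroid plexus sum. The mean of the 8 genes relative to sham was -0.47, -1.13 and -0.98 on the log2 scale in doxorubicin replicates 1, 2 and 3. After doxorubicin 8 of these 8 genes lay below sham, where 7480 of all 15296 genes did, with a median log2 fold change of -0.88. Of these 8 genes 6 did not overlap sham and 6 had an unadjusted p under 0.05, but edgeR called 0 after adjustment. Of all genes 1038 lay below sham without overlap, and 687 did so at an unadjusted p under 0.05. Microglial genes summed to 377 to 403, 355 to 371 and 374 to 408 CPM, with 8 of 8 below sham after doxorubicin (median log2 fold change -0.17) and 0 called. Of these 8 genes 3 did not overlap sham and 2 had an unadjusted edgeR p under 0.05. Neocortical genes, a sign of dissection, summed to 304 to 329 CPM in sham, 203 to 263 CPM after doxorubicin and 251 to 304 CPM with MitoQ, with the lowest value in doxorubicin replicate 3. After doxorubicin 9 of 10 lay below sham and 1 above, with a median log2 fold change of -0.25 and 0 called. Without overlap 4 of 10 lay below, and 3 did so at an unadjusted edgeR p under 0.05. RNAs retained in the nucleus, listed as an indirect sign of RNA quality, summed to 2660 to 4400 CPM in sham, 3950 to 4540 CPM after doxorubicin and 3430 to 4050 CPM with MitoQ. Meg3 had the most counts of these RNAs, 528812 over the 9 libraries, and so weighs most in this sum. No direct measure of RNA quality was used. The part of these lists in the values of the granule cell markers was not tested.

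**Figure D4:**
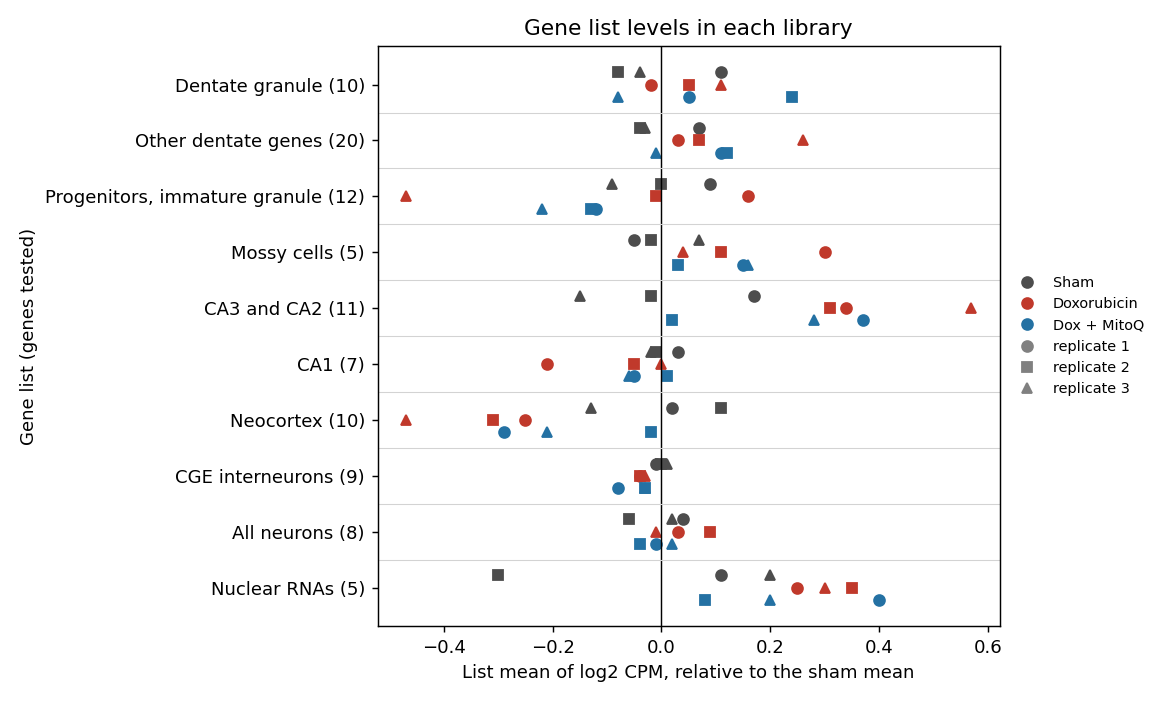
Mean log2 CPM of each gene list relative to the sham mean (horizontal axis) in every library; rows are lists, colours groups and symbols replicates. The granule cell markers lie between -0.08 and 0.24 in all libraries, with MitoQ replicate 2 at the upper end, while doxorubicin replicate 3 lies at -0.47 for immature granule genes and 0.57 for the CA3 and CA2 list.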

How the data were processed

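Per the labels' protocols, RNA from hippocampus was extracted with Trizol and spin columns and made into poly(A) libraries with a TruSeq kit. The authors deposited raw read counts per gene symbol in 9 columns. The submitters' processing notes name STAR, DESeq2 and mm10, without tool versions; for annotation, strandedness and the counter used, the status is "not given in the sources used here". Groups and replicate numbers came from sample titles.

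Of 24421 entries, 27 hold a date in place of a symbol (0.309% to 0.322% of counts per library) and stayed out of library sizes and tests. Genes were kept by filterByExpr (minimum count 10), scaled by TMM (factors 0.982 to 1.03) and fitted over all 9 libraries in edgeR 4.0.16 (R 4.3.3), with quasi-likelihood F tests and Benjamini-Hochberg adjustment over 15296 genes, called under 0.05. Intervals (95%) use the SE, the absolute log2 fold change over the square root of F. An exact test of 3 against 3 cannot go below 0.1, so none was run. Lists were described by counts and medians. Named genes were all markers and, of the 20 other dentate genes, those with the smallest p for any difference (3) and in each direction of each comparison (1). The markers and lists were chosen with earlier results of these data known.

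Alternatives were RLE size factors, library totals, DESeq2 1.42.0, limma-voom 3.58.1, no filter, 1 CPM in 3 libraries, only the groups compared, a replicate block, each library left out, a choroid plexus covariate and an adjusted p under 0.1. The fit was tested on simulated data. Coordinates and exon lengths are from GENCODE M21 (GRCm38, mm10). Figures used matplotlib 3.10.9.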

Additional observations from a re-analysis of the deposited data

How the results depend on the processing

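The markers called numbered 0 in every comparison under every alternative run, and the lowest adjusted p of a marker was 0.44 (Plk5, doxorubicin against sham, without sham replicate 1). Counts over all genes were 44 (doxorubicin against sham), 5 (MitoQ against doxorubicin), 2 (MitoQ against sham) and 31 (any difference) with DESeq2, and 1, 2, 0 and 3 with no filter on low counts. At an adjusted p under 0.1 the count for doxorubicin against sham was 1. With the replicate number as a block it was 2, and the block changed no call of a marker. Same-numbered libraries deviated together (r above 0.1) in 1 of 9 pairs, with r from -0.50 to 0.36, so the main fit used no pairing. This check cannot exclude a pairing, since libraries of different number also deviated together, with r = 0.49 for sham replicate 2 and doxorubicin replicate 1. Leaving out 1 library gave 0 to 1, 0 to 3, 0 to 3 and 0 to 4 genes in the 4 tests. The number of markers above the reference group ranged from 5 to 8, 2 to 9 and 4 to 9 of 10 in the 3 comparisons.

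Of 300 marker values under settings that keep all libraries of the groups compared, 7 changed sign. With library totals in place of TMM, Rfx3 was at -0.030 (doxorubicin against sham) and Dock10 at 0.0077 (MitoQ against doxorubicin). Dock10 was at 0.00074 (doxorubicin against sham) with limma-voom and, with a choroid plexus covariate, at 0.0089, 0.014 and 0.023 in the 3 comparisons, where Trpc6 was at 0.10 in MitoQ against sham. Of 270 values with 1 library left out, 42 changed sign. In doxorubicin against sham they ranged, over the 9 omissions, for Tdo2 from -0.0011 to 0.37, Calb1 from -0.16 to 0.0027, Stxbp6 from -0.0070 to 0.11, Dock10 from -0.10 to 0.096 and Rfx3 from -0.042 to 0.031. In MitoQ against doxorubicin they ranged, over the 9 omissions, for Prox1 from -0.040 to 0.12, C1ql2 from -0.033 to 0.078, Tdo2 from -0.36 to 0.069, Calb1 from -0.079 to 0.13, Stxbp6 from -0.094 to 0.050, Dock10 from -0.082 to 0.080, Lct from -0.061 to 0.15, Rfx3 from -0.050 to 0.20 and Plk5 from -0.066 to 0.048. In MitoQ against sham they ranged, over the 9 omissions, for Tdo2 from -0.14 to 0.20, Calb1 from -0.17 to 0.060, Stxbp6 from -0.046 to 0.098, Dock10 from -0.10 to 0.092, Trpc6 from -0.19 to 0.0070 and Rfx3 from -0.051 to 0.21. Of the 49 values that changed sign in all settings, 47 had a main log2 fold change of at most 0.1 in size. The largest main value among the 49 was 0.24 (Tdo2, doxorubicin against sham). The cause was not tested. Tdo2 had the lowest counts of the markers, 158 to 367 per library, and a biological coefficient of variation of 19%.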

Other observations

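The 5 genes whose log2 CPM followed the mean of the 10 markers most closely over the 9 libraries, among 11559 genes averaging 5 CPM or more, were Bcas2, Sspn, Dclk3, Ppil3 and Tubgcp5, with Pearson correlations of 0.9, 0.887, 0.864, 0.853 and 0.848. This is a description of 9 points chosen for likeness, with no test, and the points share library, depth and scaling. None of the 5 is in the list of other dentate genes. Bcas2, which encodes a splicing factor, varied only from 40.8 to 44.5 CPM, and Sspn, which encodes sarcospan, from 12.2 to 15.9 CPM. Dclk3, a doublecortin-like kinase, lay between 26.2 and 30.7 CPM. MitoQ replicate 2 was the highest library for Bcas2, Sspn, Dclk3 and Ppil3, and shared the highest printed value of Tubgcp5, 25.9 CPM, with sham replicate 1. The 10 markers did not all follow one another. The correlation of a marker with the mean of the other 9 was 0.878 for Lct and 0.822 for Stxbp6. It was 0.258 for Plk5, 0.251 for Calb1 and 0.133 for Trpc6, and between 0.571 and 0.812 for the rest.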
